A study of Sorghum bicolor with 14 samples.

Results

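The transcripts described here are 1084 loci of the sorghum stem that carry no gene name in the authors' table. RNA was sequenced from the middle internode of Sorghum bicolor variety ICSV12012, a sweet sorghum, a cereal grown for the sugar held in its stem. The development groups were grown in a soil bed with nitrogen fertilizer and cover 4 stages, with 2 libraries each. In order these are floral initiation, then booting, then the milky stage and last soft dough, and values below follow that order. The drought groups, used only for a check of position, were potted plants whose water was stopped at flag leaf. They were taken at booting once the soil had dried to roughly 13% moisture (D1), 7% (D2) or 2% (D3). For each locus and stage the authors give 1 FPKM value, a fragment count scaled to transcript length and library size. No spread between libraries can therefore be given, no difference below has a test, and the depth behind each value is unknown.

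The development table lists 34755 loci, of which 2003 have a dash in place of a gene name. A locus was taken where its highest value over the 4 stages was 1 FPKM or more, which left 1084 of the 2003 (54.1%). Of the 919 left out, 389 were listed at 0 in every stage. Named loci reached the same level in 18367 of 32752 cases (56.1%), so the unnamed loci made up 5.57% of the 19451 loci that reached 1 FPKM, called transcribed loci below. Because the stage values chose the members, their stage patterns are a description. The cutoff separates near neighbours. MSTRG.6935 (1.0014 FPKM at the milky stage), MSTRG.19391 (1.0014 at booting) and MSTRG.15261 (1.0029 at floral initiation) lay just inside it, and MSTRG.13234 (0.996), MSTRG.22145 (0.995) and MSTRG.19511 (0.992) just outside.

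Transcribed regions outside an annotation are a usual product of RNA sequencing, because transcripts can be assembled from the reads without a gene model. They can be long noncoding RNAs, which have no long open reading frame and are often less abundant and more restricted to a tissue or stage than messenger RNAs. They can also be coding genes that an annotation lacks, pseudogenes, extensions of a known gene beyond its annotated end, or transcripts of its opposite strand. The libraries were prepared from total RNA with a stranded kit, and the table gives no strand. All 1084 loci have identifiers that start with MSTRG, the default prefix of the assembler StringTie. So do 18295 of the 18367 named transcribed loci, so the prefix does not set the unnamed loci apart. The table pairs gene identifiers with no product names, and the labelled tissue was not checked against marker genes.

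Some loci print the same coordinates in the locus column, which bears on every span and gap below. Of the 1084 loci, 783 (72.2%) had a span that no other locus of the table has, 51 shared their span with unnamed loci alone (30 spans), and 250 (23.1%) shared it with at least 1 named locus (237 spans, with a single named locus for 178 of the 250). No unnamed locus overlapped a named one in any other way. A shared span is read here as the outline of a region that holds several loci, which no file states and which was not tested. Where an unnamed locus lies inside it is not given. The longest spans are all of this kind. MSTRG.20276 has the outline of 44 loci on chromosome 9 (281759 to 715485, 433727 bases), MSTRG.17831 that of 4 on chromosome 7 (16231702 to 16642555), and MSTRG.11951 that of 4 on chromosome 4 (48100604 to 48348111). For span the 783 loci with an outline of their own are the fair set.

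Unnamed loci were short. With an outline of their own they had a median span of 1879 bases (quartiles 976.5 and 3267.5), against 3929 bases (2505 and 5809) for the 15309 named transcribed loci of that kind. Spans under 1000 bases were found in 25.7% of the unnamed and 4.28% of the named loci. The shortest were MSTRG.5470 on chromosome 2 (56305818 to 56306317), at exactly 500 bases, MSTRG.15991 on chromosome 6 (49139071 to 49139571) with 501 and MSTRG.5512 on chromosome 2 (57182039 to 57182544) with 506. No unnamed locus of any level was shorter than 500 bases, whereas 89 named transcribed loci were.

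Without a gene name in the table does not mean unknown to every annotation. The sources used here name no genome build. The starts and ends of the table coincide with those of genes in RefSeq's annotation of the sorghum assembly NCBIv3 more often than at any neighbouring shift. Of 32578 RefSeq genes on chromosomes, 840 start 1 base after a start of the table, against 170 to 325 at the other shifts from -5 to 5 bases, and this shift led on all 10 chromosomes. At ends the shift of 0 led with 774, the next having 339. Starts of the table were thus read as counting from 0, and 1 was added to each printed here. The RefSeq table was then used for names and kinds of genes alone.

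Of the 812 unnamed loci on chromosomes with no named locus in their span, 503 (61.9%) overlapped a RefSeq gene. For 236 (29.1%) it was protein coding, for 222 (27.3%) a long noncoding RNA (lncRNA), for 20 a pseudogene and for 3 a tRNA gene, and 22 overlapped several kinds. No RefSeq gene lay under the other 309 (38.1%). Among 15281 named transcribed loci with their own span, 91.3% overlapped protein-coding genes, 2.82% lncRNA genes and 2.74% none. The kinds also differed in size and level. Loci over no RefSeq gene had a median span of 1024 bases and a median highest value of 2.44 FPKM. Those over lncRNA genes had 2542.5 bases and 6.92 FPKM, and those over protein-coding genes 2777 bases and 5.37 FPKM. At least 1 FPKM in all 4 stages was found in 59.9% of the loci over lncRNA genes, 55.1% of those over protein-coding genes and 25.6% of those over no RefSeq gene. An overlap of any length counted, and strands could not be compared. The kinds are therefore those of the RefSeq genes, and the unnamed transcripts may be of another kind.

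Most unnamed loci were weak, and a few were among the abundant transcripts of the stem. Their median highest value was 4.14 FPKM, against 14.6 over all transcribed loci. Values of at least 10 FPKM in some stage were reached by 302 (27.9%) and of at least 100 FPKM by 33 (3.04%), against 59.4% and 11.1% of all transcribed loci. At least 1 FPKM in all 4 stages was found in 507 (46.8%, all transcribed loci 75.8%), and in a single stage in 247 (22.8%, all transcribed loci 9.07%). At the same fold change a weaker locus passes a fixed cutoff in fewer stages. The median range of log2(FPKM + 1) from lowest to highest stage was 1.20 for the unnamed loci and 1.19 over all transcribed loci. Together the 1084 loci held 1.63% of the FPKM sum at floral initiation, 1.56% at booting, 1.75% at the milky stage and 1.29% at soft dough.

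**Figure D1:**
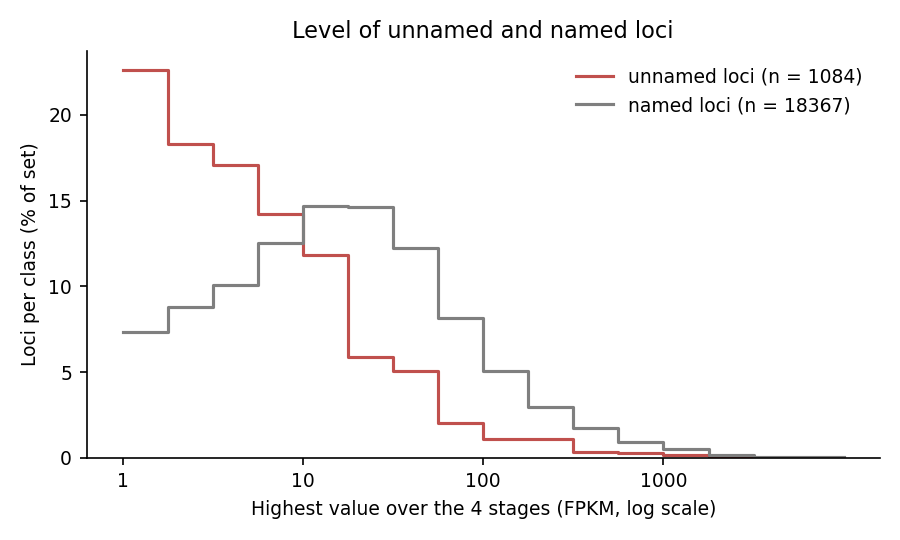
Share of loci (y axis, percent of each set) by highest value over the 4 stages (x axis, FPKM on a log scale, classes of equal width, the last one open) for the 1084 unnamed and the 18367 named loci of at least 1 FPKM. The unnamed loci crowd at the low end, with a median of 4.14 FPKM against 15.6 for the named.

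The spans of the 4 most abundant all overlap protein-coding RefSeq genes. MSTRG.5932 alone shares its span with a named locus, and MSTRG.22462 shares its span with another unnamed locus, MSTRG.22461. MSTRG.20299 on chromosome 9 (1187764 to 1188696, RefSeq LOC8068677) was at 1259 FPKM at floral initiation, 1516 at booting, 353 at the milky stage and 776 at soft dough. It stood lowest at the milky stage, a log2 difference of -2.10 from booting on the log2(FPKM + 1) scale used for every difference here. MSTRG.5932 on chromosome 2 was at 687, 830, 1105 and 823 FPKM in the same order of stages, with its peak at the milky stage and a log2 range of 0.68. It shares its span (63339840 to 63351143) with a named locus that joins Sobic.002G244700, Sobic.002G244800 and Sobic.002G244901 and stood at 1082, 618, 772 and 523 FPKM, highest at floral initiation. MSTRG.22462 on chromosome 10 (2798505 to 2803386, LOC8070729) was at 202, 737, 407 and 336 FPKM, and MSTRG.16065 on chromosome 6 (49830493 to 49832768, LOC8075881) at 213, 581, 370.5 and 252. These 2 were highest at booting. Their nearest named loci were weak, Sobic.010G034600 being listed at 0 until soft dough (0.102 FPKM) and Sobic.006G135300 reaching 7.24 FPKM at most.

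The most abundant loci over lncRNA genes, chosen like the next ones after their values were seen, were MSTRG.23019 (LOC110431017), MSTRG.17924 (LOC8071005) and MSTRG.3397 (LOC110431767). MSTRG.17924 on chromosome 7 (38021281 to 38023337) was at 53.7, 176, 218 and 76.3 FPKM from floral initiation to soft dough. MSTRG.3397 on chromosome 1 (72269536 to 72273152) was at 105, 121, 175 and 192 FPKM, higher at each later stage. Over a pseudogene the highest was MSTRG.8401 on chromosome 3 (13453443 to 13455632, LOC110433815), at 48.6, 108, 111 and 128 FPKM. Where RefSeq has no gene, MSTRG.4220 and MSTRG.8827, described with the stages, came before MSTRG.250 on chromosome 1 (2368702 to 2371003), at 98.4, 181, 133 and 127 FPKM.

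The density of unnamed loci varied less between chromosomes than that of all transcribed loci. It lay between 1.31 per megabase (chromosome 7) and 1.85 (chromosome 5), taking the highest coordinate in the table as the length. The count on chromosome 5 includes a row of 11 loci, described further on, that are not independent of each other. All transcribed loci ranged from 14.7 per megabase on chromosome 5 to 43.0 on chromosome 1. The unnamed share was accordingly 12.6% on chromosome 5 (133 of 1055) and 8.26% on chromosome 8 (85 of 1029), down to 3.91% on chromosome 1 (136 of 3475). A further 22 unnamed loci lay on sequences outside the chromosomes, where 51 transcribed loci lie in all. Along the chromosomes the middle held the fewest unnamed loci, but a larger share of them than of the named ones. Between 40% and 60% of the length lay 63 of 1062 unnamed loci (5.93%) and 248 of 18338 named ones (1.35%), while the last stretch from 80% on held 30.9% of the unnamed and 47.1% of the named.

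**Figure D2:**
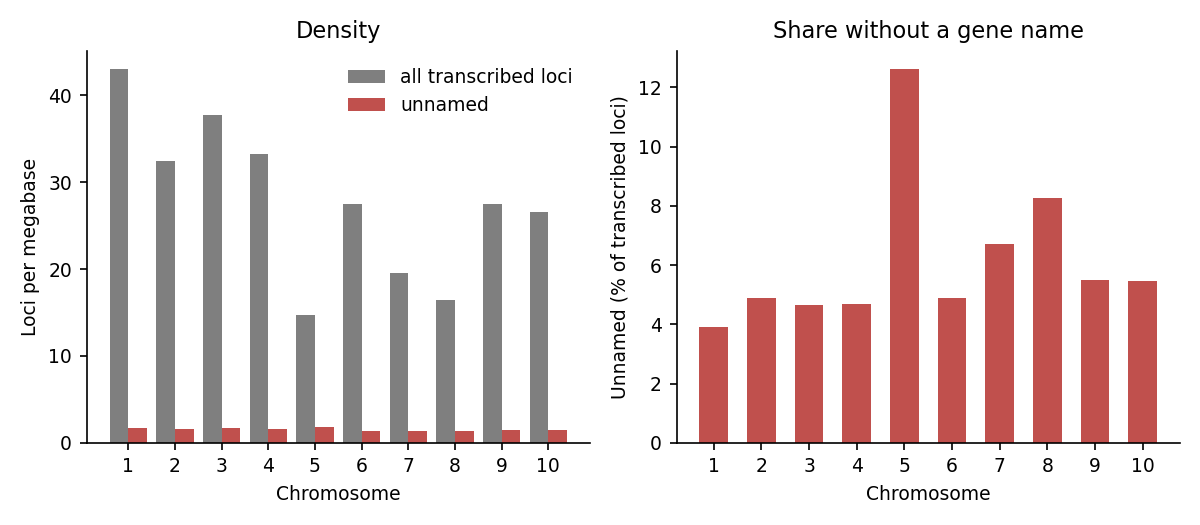
Left, transcribed loci per megabase (y axis) on the 10 chromosomes (x axis), all in grey and unnamed in red; right, unnamed loci as a percentage of transcribed loci. Unnamed density stays between 1.31 and 1.85 per megabase, and the unnamed share is highest on chromosome 5 (12.6%), where all loci are sparsest.

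The 822 unnamed loci with a gap to measure lay a median of 2504 bases from the nearest named locus of any level (quartiles 804 and 8309), against 1499 bases (494 and 3655) between named transcribed loci and their nearest other named locus. Gaps of more than 10000 bases were found for 187 unnamed loci (22.7%) and 8.49% of the named ones, and gaps of more than 100000 bases for 49 (5.96%) and 0.834%. Chromosome 5 had the widest median gap, 4983 bases, and 40 of the 187 gaps of more than 10000 bases, those of the row of 11 included. On 12 further loci no gap can be given, because their sequence holds no named locus. The most isolated were MSTRG.15364 on chromosome 6 (24224875 to 24226758), 1295919 bases from Sobic.006G040500, MSTRG.8651 on chromosome 3 (34752422 to 34753981), 874669 bases from Sobic.003G170966, and MSTRG.14348 on chromosome 5 (32445932 to 32446696), 576695 bases from Sobic.005G110496. None of these 3 has a RefSeq gene under it. MSTRG.15364 was at 0.958, 0.417, 1.14 and 0.914 FPKM over the stages and MSTRG.14348 at 1.19, 1.11, 0.713 and 0.715. From lowest to highest stage these are ranges of 2.73-fold and 1.67-fold as ratios of FPKM without an offset, at levels near the cutoff. MSTRG.8651 was at 0.636 and 3.04 FPKM at floral initiation and booting and at 0.00962 and 0.0397 later, so that it was near 0 at both later stages.

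Across the stages the milky stage was where unnamed loci most often peaked. Their highest value fell at the milky stage for 369 (34.0%), at booting for 273 (25.2%), at floral initiation for 251 (23.2%) and at soft dough for 191 (17.6%). Over all transcribed loci these shares were 25.9%, 22.5%, 30.5% and 21.1%, with floral initiation the most frequent. On 9 of the 10 chromosomes the milky stage led, and on chromosome 6 booting (35 of 82). On chromosome 5 the 43 loci highest at the milky stage include 10 of the row of 11 described further on. Without that row the milky stage does not lead there but ties with booting. The lead did not hold in every class of loci. Of the 309 loci over no RefSeq gene, 95 peaked at booting and 92 at the milky stage. Over lncRNA genes these were 58 and 84 of 222, and over protein-coding genes 59 and 74 of 236. Of the 396 loci more than 1000 and up to 10000 bases from a named locus, 112 peaked at booting and 115 at the milky stage. In an internode, a bulk sample, fewer cells of a type and less RNA per cell cannot be told apart. Ranks of the unnamed loci were most alike between the milky stage and soft dough (Spearman's rho 0.848, n = 1084 loci) and least alike between floral initiation and the milky stage (0.551). The named loci had 0.925 and 0.784 for these pairs. The loci share libraries and are no replicates.

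The lead of the milky stage was widest far from named loci. Of the 187 unnamed loci more than 10000 bases away, 89 (47.6%) were highest at the milky stage and 21 (11.2%) at floral initiation. Of the 885 nearer ones these were 272 (30.7%) and 230 (26.0%). Of the 1312 named transcribed loci more than 10000 bases from another named locus, these were 27.3% and 33.7%. The differences were not tested. One row of 11 loci on chromosome 5, described further on, adds to this, and without it 79 of 176 distant loci (44.9%) peaked at the milky stage.

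**Figure D3:**
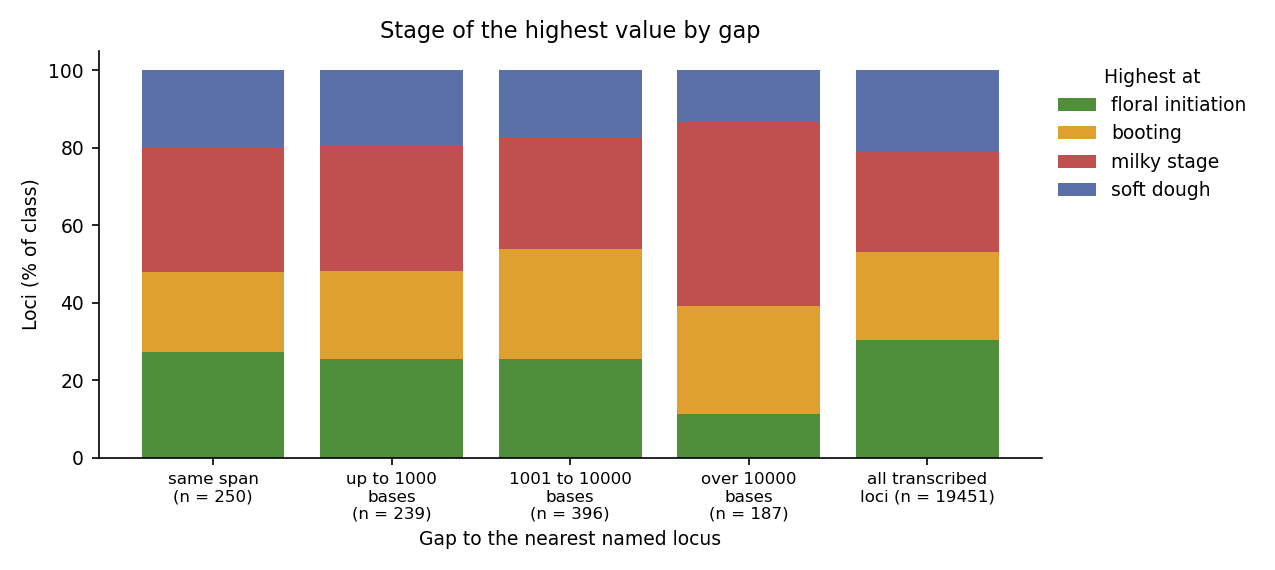
Stage of the highest value (colours, percent of loci on the y axis) for unnamed loci in 4 classes of gap to the nearest named locus and for all 19451 transcribed loci (x axis). Milky stage peaks make up 47.6% of the 187 loci more than 10000 bases away and 25.9% of all transcribed loci.

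Counted by steps, a difference of at least 1 in log2(FPKM + 1), that is 2-fold with the offset, separated booting from floral initiation for 264 unnamed loci (24.4%), 172 higher (background over all transcribed loci 15.8%) and 92 lower (13.3%) at booting, where 29.0% of all transcribed loci differed in either direction. From booting to the milky stage 368 (33.9%) differed, 190 higher (background 9.73%) and 178 lower (15.7%), with 25.4% in either direction over all transcribed loci. From the milky stage to soft dough 186 (17.2%) differed, 55 higher (background 9.05%) and 131 lower (8.35%), with 17.4% in either direction. From end to end, soft dough against floral initiation, it was 307 (28.3%), 146 higher (background 13.7%) and 161 lower (16.7%), with 30.3% in either direction. The offset makes changes of weak loci look smaller, and unnamed loci are weaker than the rest. At 2-fold in some pair of stages stood 712 (65.7%, background 61.9%). The median changes at the 3 steps were 0.12, 0.05 and -0.08, against 0.02, -0.03 and 0.02 over all transcribed loci. From booting to the milky stage the larger direction turned with an offset of 5 (47 higher, 53 lower) and at a log2 difference of 2 (40 higher, 58 lower). From end to end it turned with quantile normalization (190 higher, 137 lower), without loci listed at 0 (130 and 127) and for loci with no named locus in their span (118 and 114).

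At least 2-fold above every other stage stood 48 unnamed loci at floral initiation (background 7.44%), 57 at booting (3.65%), 63 at the milky stage (2.78%) and 8 at soft dough (0.961%), which are 4.43%, 5.26%, 5.81% and 0.738% of the 1084. Of the 57 at booting, 28 were listed at 0 in some stage, and 29 remain without them. Of the 48 at floral initiation, 24 share their span with a named locus (9.60% of 250), and the other 24 are 2.88% of the 834 that do not. Among these 834, booting and the milky stage had 47 each. A higher value at every step with 2-fold in total was found for 29 (2.68%, background 3.01%), and the reverse course for 31 (2.86%, background 4.14%). At least 2-fold below every other stage stood 41 at floral initiation (background 5.74%), 17 at booting (1.17%), 16 at the milky stage (3.40%) and 11 at soft dough (1.18%). Of the 16, chosen after their values were seen, MSTRG.11158 on chromosome 4 (3998353 to 3999708) was at 47.5, 51.0, 16.2 and 66.4 FPKM.

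Among the loci that led at floral initiation, MSTRG.7634 on chromosome 3 (3440845 to 3443361, over the protein-coding LOC8084365) was at 308 FPKM there, 77.4 at booting, 83.6 at the milky stage and 14.1 at soft dough, a log2 difference of -4.36 from the first to the last stage. MSTRG.8882 on the same chromosome (52366539 to 52369185, LOC8078215) was at 294, 56.9, 44.1 and 19.2 FPKM, lower at every step. Their gaps to the nearest named locus are 15822 and 15330 bases. Sobic.003G037000, nearest to the first, was highest at the milky stage (36.9 FPKM), and Sobic.003G198000, nearest to the other, never passed 0.00617 FPKM. The last of these, MSTRG.23517 on chromosome 10, was at 281 FPKM at floral initiation and listed at 0 in the other stages. It shares its span (52122844 to 52228422) with a locus joining 4 named genes, listed at 1877 FPKM and then at 0 in the same stages, and with Sobic.010G182500 (0.108 FPKM, then 0), so all 3 loci of that span are listed at 0 after floral initiation.

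The leaders at booting were MSTRG.1398, MSTRG.15424 and MSTRG.15353. MSTRG.1398 is a short locus on chromosome 1 (15401796 to 15402467, LOC8064562, protein coding) at 79.8 FPKM at floral initiation, 266 at booting, 50.3 at the milky stage and 73.0 at soft dough. Its nearest named locus, Sobic.001G181800, begins 294 bases away and is listed at 0 in all 4 stages. MSTRG.15424 (chromosome 6, 33778103 to 33780560, over the lncRNA gene LOC110436543) was at 45.3, 152, 72.3 and 61.5 FPKM. MSTRG.15353 on the same chromosome (17176824 to 17178444, lncRNA gene LOC110436117) was at 16.8 and 108 FPKM and listed at 0 at both later stages.

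At the milky stage the list was led by MSTRG.23019 on chromosome 10 (12038449 to 12040262), at 46.7, 35.6, 233 and 107 FPKM. The other unnamed locus of its span, MSTRG.23018, was at 3.16, 8.36, 53.8 and 20.6, so both were highest at the milky stage. MSTRG.4001 on chromosome 1 was at 18.3, 43.9, 112 and 35.9 FPKM, and Sobic.001G519200, which has the same span (78532510 to 78534290), rose and fell in the same order at 9.11, 21.7, 30.7 and 13.4. Soft dough had weaker leaders. MSTRG.23367 on chromosome 10 (48187119 to 48193329, LOC110431229, protein coding) was at 15.8, 8.74, 13.7 and 40.7 FPKM. MSTRG.1116 on chromosome 1 (11059692 to 11060224) was higher at each stage, at 0.264, 1.40, 12.5 and 27.8 FPKM, a log2 difference of 4.51 from end to end. Only 7 bases separate it from Sobic.001G139200, which took the same course at 0.203, 1.02, 5.07 and 15.9 FPKM. MSTRG.19835 on chromosome 8 (56470318 to 56474560, in the span of Sobic.008G136000) was at 23.3 FPKM at soft dough, 2.98 and 2.57 at the stages before and listed at 0 at floral initiation. Sobic.008G136000 itself was listed at 0 there and at 4004, 1326 and 4125 FPKM later, so both loci of that span have a 0 in the same stage.

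**Figure D4:**
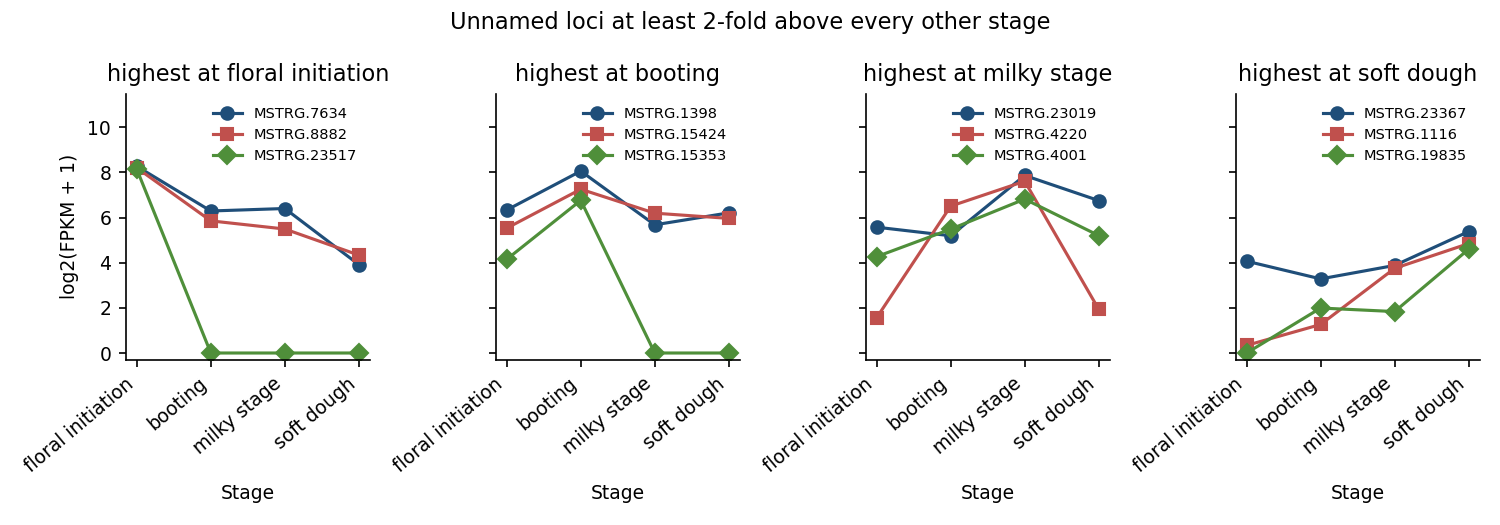
log2(FPKM + 1) (y axis) over the 4 stages (x axis) for the 3 unnamed loci with the highest FPKM among those at least 2-fold above every other stage, one panel per leading stage. MSTRG.4220 goes from 1.96 FPKM at floral initiation to 195 at the milky stage and 2.83 at soft dough, and MSTRG.23517 and MSTRG.15353 drop to a listed 0.

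A smaller set stood high at booting and the milky stage together, a pattern noticed after the values were seen. At both stages at least 2-fold above floral initiation and soft dough were 27 unnamed loci (2.49%, background 1.10%), 19 of which reached 10 FPKM and 23 of which have no named locus in their span. The opposite form, floral initiation and soft dough both above the stages between, was found for 2 (0.185%, background 0.432%). MSTRG.4220, the last locus of chromosome 1 (80879509 to 80880707), was at 1.96, 90.1, 195 and 2.83 FPKM. This is a range of 99.2-fold as a ratio of FPKM without the offset. Its nearest named locus 830 bases away, Sobic.001G544600, was at 4.90, 8.95, 2.79 and 11.7 FPKM, low where MSTRG.4220 was highest. On chromosome 3, which holds 7 of the 27, MSTRG.8665 was at 6.56, 358, 427 and 3.82 FPKM and MSTRG.8676 at 2.13, 104, 137 and 2.59. They share their span (38335042 to 38369582) with 10 named loci, the strongest of which, Sobic.003G172800, stayed between 5.36 and 10.6 FPKM. Next to it, MSTRG.8681 (38374455 to 38379260) was at 0.711, 19.8, 24.0 and 1.02 FPKM. The spans of these loci hold the tRNA genes TRNAC-GCA and TRNAF-GAA in RefSeq. Among loci with no named locus in their span, 3 lie over tRNA genes alone and all were highest at the milky stage. They are MSTRG.8681, MSTRG.8625 (0.743, 2.57, 6.22 and 0.380 FPKM) and MSTRG.19447 (1.66, 0.113, 2.09 and 1.01 FPKM). MSTRG.19447 was lowest at booting and so does not have the pattern of the 27. MSTRG.8827, farther along chromosome 3 (51129192 to 51130309) and over no RefSeq gene, was at 29.2, 101, 187 and 16.6 FPKM. Shallower peaks of the same form were seen for MSTRG.19837 on chromosome 8 (56526727 to 56529422, LOC110437620, protein coding), at 122, 333, 375 and 161 FPKM, and for MSTRG.17924.

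Some unnamed loci form rows with no named locus between them. There were 56 such rows with 124 loci, 52 of them pairs and 3 of them triplets. The exception is a row of 11 on chromosome 5 (45439842 to 45567318, 127477 bases), which begins 345175 bases from the nearest named locus, Sobic.005G115000. Of the 11, the milky stage was highest for 10 and booting for 1. MSTRG.14414 was the strongest at 0.917, 5.70, 15.1 and 10.6 FPKM, followed by MSTRG.14415 at 0.511, 2.18, 10.4 and 3.68. MSTRG.14418, the one highest at booting, was at 0.737, 9.01, 6.56 and 3.33. At the weak end MSTRG.14406 was at 0.0592, 0.391, 1.20 and 0.422 FPKM. The 11 are not independent examples. A single RefSeq lncRNA gene, LOC110435582, overlaps the outlines of all 11, and 3 of them share 1 outline and 6 another.

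**Figure D5:**
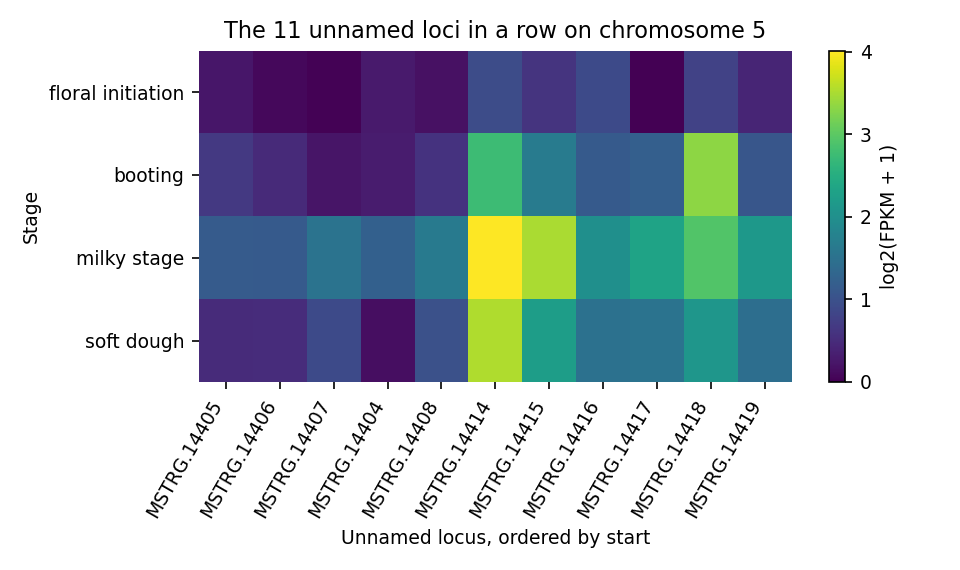
log2(FPKM + 1) (colour) of the 11 unnamed loci in a row on chromosome 5 (x axis, ordered by start) at the 4 stages (y axis). The milky stage is the brightest for 10 of the 11, and floral initiation stays under 1 FPKM throughout.

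Triplets on chromosomes 3 and 6 come next in number of loci. On chromosome 3, MSTRG.8059 (8315698 to 8316318) was at 62.9 FPKM at floral initiation and between 4.17 and 5.55 later. Next to it MSTRG.8060 and MSTRG.8061 share a span and differ by less than 1% in all 4 stages (0.539, 0, 1.20 and 0.744 FPKM for the first), the only such pair among the 1084. On chromosome 6 (16782087 to 17323243) MSTRG.15352 had its highest value in the milky stage (13.4 FPKM) and MSTRG.15354 its highest in booting (10.1). They lie on either side of MSTRG.15353, and all 3 are over lncRNA genes.

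Steady expression was found as well. At least 10 FPKM in every stage was reached by 90 unnamed loci, and 35 of them (38.9%) stayed within 2-fold between highest and lowest stage, against 43.2% of 6502 named loci. The steadiest, MSTRG.717 on chromosome 1 (6789578 to 6791103, over no RefSeq gene), was at 11.3, 11.9, 12.2 and 11.3 FPKM, a log2 range of 0.11. It lies 100 bases from Sobic.001G087500, which went from 1.15 to 0.250 FPKM. MSTRG.23612 on chromosome 10 (54139918 to 54144194, LOC8083482) was at 11.1, 10.8, 11.7 and 10.8 FPKM. MSTRG.6637 on chromosome 2 (70501048 to 70503666), over the lncRNA gene LOC110432207, was at 59.0, 57.6, 69.9 and 56.9 FPKM.

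In some stage 148 unnamed loci (13.7%) were listed at 0, against 2.52% of all transcribed loci, 81 of them in 1 stage, 56 in 2 and 11 in 3. By stage there were 54 at floral initiation, 37 at booting, 67 at the milky stage and 68 at soft dough. A listed 0 can be a failed estimate, and no fold is given against one. In 17 cases the locus reached at least 10 FPKM elsewhere. MSTRG.15422 on chromosome 6 (33556671 to 33558227) was at 10.2, 49.6 and 19.9 FPKM at floral initiation, the milky stage and soft dough and listed at 0 at booting.

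With the nearest named locus above 0 in some stage, the highest stage was the same for 285 of 868 (32.8%), and for 4682 of 15923 named loci and their own nearest named locus (29.4%). By gap the shares were 33.9% in the same span, 33.0% up to 1000 bases, 32.6% up to 10000 and 30.6% beyond. Between named loci these shares were 31.2%, 29.2%, 28.8% and 30.1%. For the log2 difference between soft dough and floral initiation, Pearson's r with a neighbour of at least 1 FPKM was 0.50 in the same span (n = 184 loci), 0.30 up to 1000 bases (n = 148), 0.16 up to 10000 bases (n = 200) and 0.22 beyond (n = 65). Named pairs had 0.07, 0.09, 0.10 and 0.15 in these classes. All points share the same libraries, the values are descriptions, and in shared spans the named locus used as neighbour is the first listed. Unnamed loci were below their neighbour in 417 of 868 cases (48.0%), whereas 36.7% of the named loci were below theirs. The median highest value of the neighbour was 4.80 FPKM in the same span and 0.00806 beyond 10000 bases. For the neighbours of named transcribed loci it was 3.49 and 1.27 FPKM. The unnamed loci themselves had 4.97 and 4.94, but they were chosen at 1 FPKM or more, while a neighbour could have any level.

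The drought table holds no unnamed entry among its 32726, so no drought value of these loci exists in it under their own identifier. By position, 24 of the 834 unnamed loci with no named locus in their span (2.88%) overlapped a locus of the drought table, none at the same coordinates. For 19 the drought locus had the name of their nearest named locus, and 14 of the 24 lay wholly inside a drought locus. The 250 loci that share a span with a named locus overlapped drought loci in 249 cases, 75 at the same coordinates. The cases that follow were picked by level after the values were seen. Sobic.003G139100, which lies 5 bases from MSTRG.8401 and MSTRG.8402 in the development table and overlaps both in the drought table, was at 78.8 FPKM in D1, 63.7 in D2 and 146 in D3. Sobic.009G141800, which overlaps MSTRG.21269 (4.90 FPKM at booting), was at 134, 196 and 360 FPKM. Sobic.008G060300, in a span that holds MSTRG.19265, was at 75.2, 67.2 and 33.0 FPKM. These are values of the named loci, and the tables were quantified separately, so they are not compared with the stages.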

How the data were processed

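RNA of the middle internode was sequenced in 14 libraries, 2 per group, grouped by the stage or condition in the labels. Per the labels, libraries were made from total RNA with a stranded kit. Per the file headers the authors deposited FPKM, 1 value per locus and group, with stages and drought quantified in separate tables. The submitters' processing notes name Bowtie2 2.2.9, cutadapt 1.8.1, Cuffdiff and HISAT2 2.0.5. How libraries were combined, the build and the annotation are not given in the sources used here. There were 0 columns of other samples. FPKM keep no read totals, so depth is unknown and no value is given a counting interval.

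Differences are of log2(FPKM + 1). They have no test, and limma was not run, because there is 1 value per group. Gaps count the bases between outlines, and where several named loci were equally near the first in the table was taken. Counts were made with pandas 2.3.3 and numpy 2.4.6, and the steps were tested on simulated data. The loci named are the most abundant, the leaders of each stage, the extremes of span, gap and steadiness, the longest rows and those at the cutoff; others are said to be chosen after their values were seen. The members and lists were chosen with earlier results of these data known. The overlap with RefSeq departs from the plan of this work, which allowed it only with a stated build. It was made after the coordinates were seen to coincide, by position, since 0 sorghum identifiers are in that table.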

Additional observations from a re-analysis of the deposited data

How the results depend on the processing

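Of 101 values recomputed for 13 results, 61 stayed within 1.5 times the reported count or within the 95% binomial interval of the reported share or median, and 40 moved. These intervals serve only as a yardstick, since they treat the loci as independent, which loci from the same libraries are not. Some of the 61 could not have moved, so the tally is no measure of stability. With no minimum, the counts of differing loci and of loci above every other stage were fixed in advance. A locus under 1 FPKM in every stage has log2(FPKM + 1) under 1 and cannot reach the difference asked for. Leaving out the row of 11 could hardly move these counts by 1.5 times. Counts of differing loci followed the offset, the minimum and the size of change asked for. The 4 comparisons (booting against floral initiation, milky stage against booting, soft dough against milky stage, soft dough against floral initiation) gave 264, 368, 186 and 307 loci as reported. They gave 483, 565, 374 and 513 with an offset of 0.1, 93, 100, 65 and 91 with an offset of 5, 171, 205, 122 and 183 with a minimum of 5 FPKM, and 71, 98, 27 and 69 at a log2 difference of 2. The loci above every other stage (floral initiation, booting, milky stage, soft dough), reported as 48, 57, 63 and 8, were 90, 93, 106 and 21 with an offset of 0.1, 17, 16, 17 and 2 with an offset of 5, 31, 30, 41 and 3 with a minimum of 5 FPKM, and 10, 16, 2 and 2 at a log2 difference of 2. The minimum of 5 FPKM also leaves fewer loci to count from. Its lower counts therefore do not show that a smaller share of loci differed, and no share of differing loci is given for it. Without loci listed at 0, 29 led at booting and 5 at soft dough. Among loci with no named locus in their span, 24 led at floral initiation and 47 each at booting and the milky stage. The lead of the milky stage in this count was thus lost at a log2 difference of 2, tied with floral initiation with an offset of 5 and tied with booting for loci with no named locus in their span. The share of higher loci moved by over 10 points at a log2 difference of 2 (40 higher and 58 lower from booting to the milky stage, 22 and 47 from end to end), with an offset of 5 from the milky stage to soft dough (11 and 54) and with quantile normalization from end to end (190 and 137). Quantile normalization shifted the median change of all transcribed loci by at most 0.099. For the unnamed loci it took the medians at the 3 steps from 0.12, 0.05 and -0.08 to 0.17, 0.18 and -0.13. From end to end it took their median from 0.07 to 0.22.

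The median span (2564 bases over all 1084 loci) was 2991 with a minimum of 5 FPKM, 2355.5 with no minimum and 2015.5 with no named locus in the span. Against named loci of at least 1 FPKM alone, the median gap was 6374 bases in place of 2504, and 33.5% in place of 45.6% lay within 1000 bases or in the same span. The share overlapping a named locus and the share with the neighbour's highest stage stayed within their intervals in the alternatives run. Alternatives without loci listed at 0, with no named locus in the span, at a log2 difference of 2 and without the row of 11 were chosen after seeing the data. No paired analysis was possible because each group has a single deposited value, which is also why no replicate could be left out.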
